A study of Mus musculus with 6 samples.

Results

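Semaphorins, their plexin and neuropilin receptors, ephrins and Eph receptors were read in sorted cells of the mouse calvarial suture. Members were the array features with exactly 1 gene symbol that names a class 3 to 7 semaphorin, a plexin, a neuropilin, an ephrin or an EphA or EphB receptor, and the brightest feature of each gene was used. This gave 52 of the 19938 genes tested, of which 20 were semaphorins, 2 neuropilins, 9 plexins, 8 ephrins and 13 Eph receptors. Ephb2 was not analysed here because it has no feature with 1 symbol. The samples were 3 of Axin2+/GFP+ cells and 3 of Axin2-/GFP- cells from the suture mesenchyme of mice at postnatal day 28, on a mixed background of C57BL/6J, CD-1 and B6CBAF2. All mice carried the Axin2rtTA and TRE-H2BGFP transgenes and received doxycycline from postnatal day 25, so the controls share both transgenes and the drug. Cells of 6 to 8 mice were pooled for each sample, freed with collagenase and sorted by GFP intensity, and the study calls the GFP-bright sort Axin2+/GFPhi. Only GFP intensity is named as the basis of the sort, with no marker of cell type, so each population can hold several cell types.

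These families are cell surface and secreted cues that steer growing axons, and they also set tissue boundaries, vessel paths and immune cell contacts. Class 3 semaphorins are secreted and mostly act through a neuropilin paired with an A-type plexin, whereas classes 4 to 7 are tied to the membrane and bind plexins directly. Ephrins of the A group hang on a lipid anchor and those of the B group span the membrane, and Eph receptor kinases read them on touching cells. In the skull, Eph and ephrin signals keep bone-forming and suture cells apart, and in bone several of these genes carry signals between osteoclasts and osteoblasts.

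The authors deposited log2 expression values, 1 for each feature and array, made with RMA, a method that summarises the probes of a feature. A level or difference below is on that log2 scale unless it is called a fold. Precision is limited by having 6 arrays, and a p-value here reflects the scatter of pooled samples, not of single mice. In limma the scatter of each gene is also drawn toward that of all genes tested. As a guide to low signal, the 1190 olfactory and vomeronasal receptor genes, called chemoreceptor genes below, which these cells are not known to use, had a 95th percentile of 3.0 in Axin2+/GFP+ and 2.73 in Axin2-/GFP- cells. Their median log2 change was 0.30, against 0.14 over all genes, so dim features read somewhat higher in Axin2+/GFP+ cells. Of the 52 members, 28 had a mean above that percentile in at least 1 population and 24 in neither.

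The labels were set against marker genes. Axin2 itself was read at 2.89, 2.54 and 3.07 in Axin2+/GFP+ samples, against 2.18, 2.27 and 2.38 in Axin2-/GFP- samples. The difference of 0.55, with a standard error of 0.19 (limma, adjusted p = 0.0802), did not pass, although the samples did not overlap. By two-sided t-tests the study itself reports significantly higher Axin2 in this sort, on the array and by real-time PCR. Its signal was low, as 7.06% of the chemoreceptor genes matched or exceeded the Axin2 mean in Axin2+/GFP+ and 12.3% in Axin2-/GFP- cells. Of 15 mesenchymal markers 4 were higher, 1 was lower and 10 did not pass. The collagens Col1a2 and Col3a1 were 1.72 and 1.95 higher, and Fn1, named after its values were seen, had a change of -0.98 (limma, adjusted p = 0.0373). Both sorts also held blood cell RNA. The mean of 14 measured B-lineage markers of 15 listed was 2.79 to 2.98 in Axin2+/GFP+ samples, against 6.67 to 7.09 in Axin2-/GFP- samples, and all 14 were lower. The mean of 15 neutrophil markers was 8.62 to 8.87 in Axin2+/GFP+ samples, against 5.53 to 7.08 in Axin2-/GFP- samples, and 13 were higher. Of 11 measured T and NK cell markers 4 were lower, of 15 macrophage markers 1 was higher and 3 were lower, of 13 endothelial markers 1 was lower, and none of the 9 neural and Schwann cell markers passed (3 were higher at an unadjusted p under 0.05 in limma). In bulk RNA fewer cells of a type and less RNA per cell cannot be told apart.

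**Figure D1:**
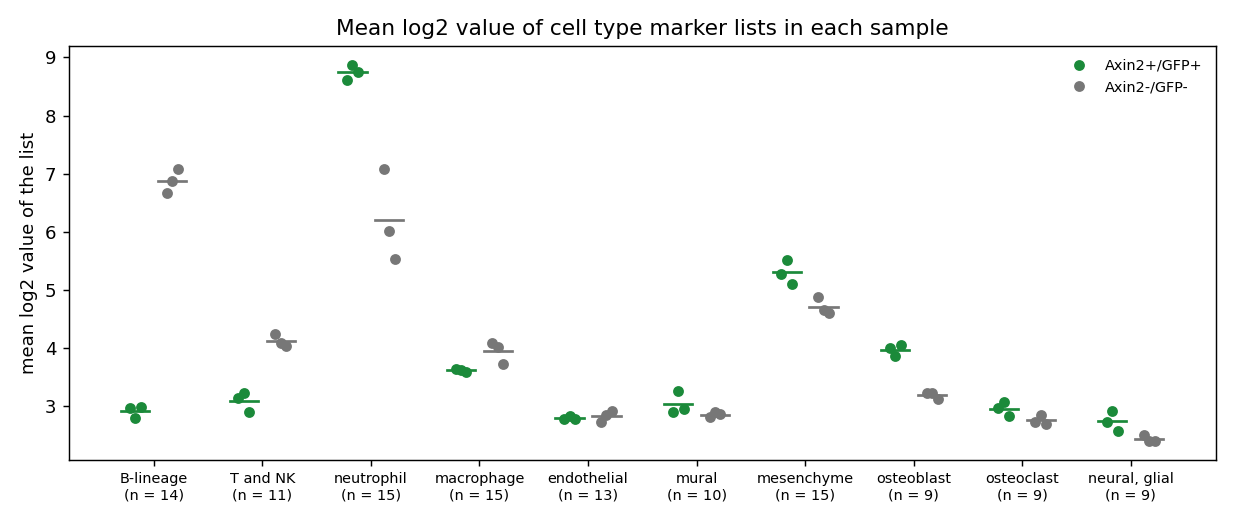
The mean log2 value of each cell type marker list is plotted on the vertical axis, each point a sample, bars at the mean of 3 samples, and green for Axin2+/GFP+ and grey for Axin2-/GFP- cells. The B-lineage list lies at 2.79 to 2.98 in Axin2+/GFP+ and at 6.67 to 7.09 in Axin2-/GFP- samples, and the neutrophil list lies higher in every Axin2+/GFP+ sample.

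Of the 52 members, 3 were higher and 4 were lower in Axin2+/GFP+ cells at an adjusted p under 0.05 in limma. Higher were the ephrins Efnb3 and Efna3 and the receptor Epha8, and lower were the semaphorins Sema4b and Sema4d, the plexin Plxnb2 and the receptor Epha2. These were 5.77% and 7.69% of the members, against 4.64% called higher and 11.4% called lower over all genes tested, so the shares were near those of the whole table. Among the members 17 lay higher and 5 lower without overlap of the 2 populations, 32.7% and 9.62% of them, against 23.1% and 17.8% of all genes (40.9% either way). All 7 called members had at least 1 population above the 95th percentile of the chemoreceptor genes. The median log2 change of the members was 0.22. Their median SD was 0.18 in Axin2+/GFP+ and 0.17 in Axin2-/GFP- samples, against 0.26 and 0.19 over all genes.

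**Figure D2:**
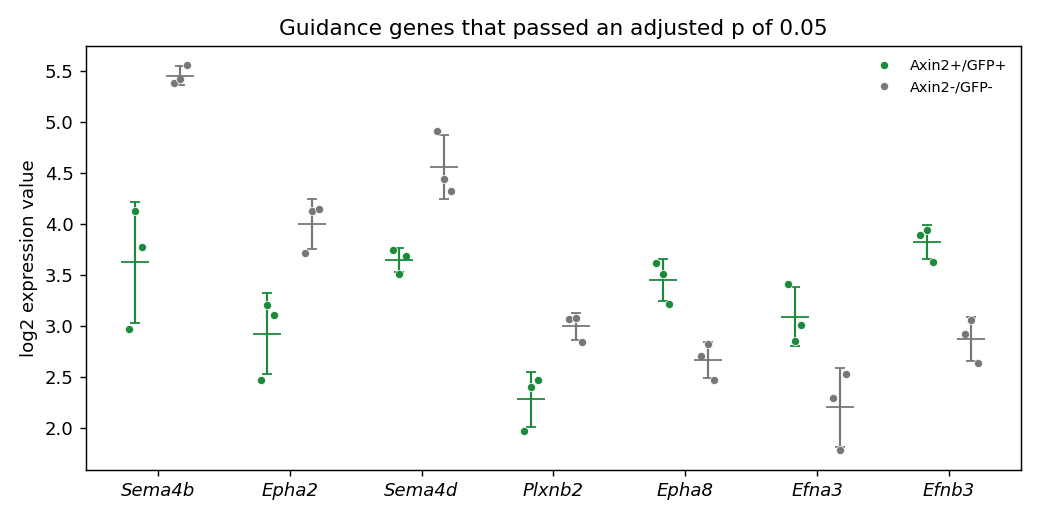
Log2 values of the 7 members that passed an adjusted p of 0.05 are plotted on the vertical axis, with 1 point per sample, bars at means and 1 SD whiskers, green for Axin2+/GFP+ and grey for Axin2-/GFP- cells. None of the 7 shows overlap, and Sema4b shows the widest gap, 3.62 against 5.45.

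**Figure D3:**
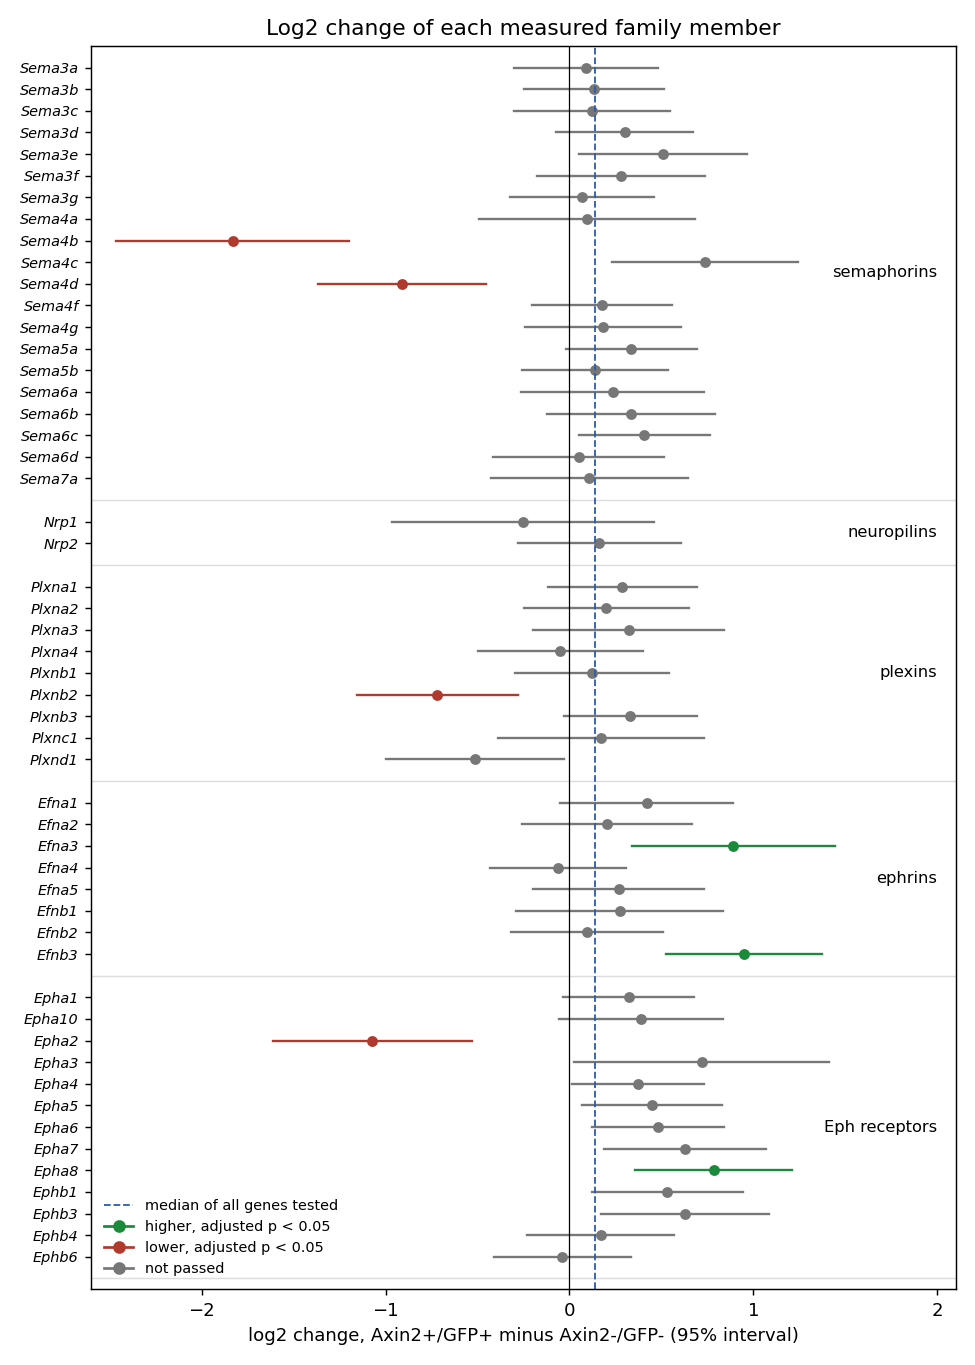
The log2 change of each of the 52 members is plotted on the horizontal axis with its 95% interval from limma, ordered by family, green where higher and red where lower at an adjusted p under 0.05 and grey otherwise. The dashed line marks the median of all genes tested at 0.14, and 43 of the 52 points lie above 0.

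Among the 20 semaphorins, the 2 called genes were both lower and of class 4. They are 10% of the family, against 11.4% of all genes called lower. Sema4b, a membrane-spanning class 4 semaphorin, was read at 2.97, 4.12 and 3.77 in Axin2+/GFP+ samples, against 5.38, 5.42 and 5.56 in Axin2-/GFP- samples. Every Axin2+/GFP+ sample lay more than 1 below every Axin2-/GFP- sample on the log2 scale, and replicate 1 lay lowest. The difference was -1.83 on the log2 scale, with a standard error of 0.28 (limma, adjusted p = 0.00381), 3.56-fold lower, with a 95% interval of -2.47 to -1.20. Its SD of 0.59 in Axin2+/GFP+ cells was the highest of the 52 members there, against 0.09 in Axin2-/GFP- cells.

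Sema4d, known as CD100, is carried by lymphocytes, where it binds Cd72 on B cells, and by osteoclasts, from which it restrains osteoblasts through Plxnb1. It was read at 3.74, 3.51 and 3.68 in Axin2+/GFP+ samples, against 4.91, 4.44 and 4.32 in Axin2-/GFP- samples. The 2 populations did not overlap, and Axin2-/GFP- replicate 1 lay highest. On the log2 scale the means differed by -0.91, with a standard error of 0.20 (limma, adjusted p = 0.0186), 1.88-fold lower. A second, dimmer feature of Sema4d gave a log2 change of -0.15 with overlapping samples (adjusted p = 0.735 over all features). The mean of both features gave -0.53, which did not pass, nor did the gene pass after quantile normalization (-0.56) or cyclic loess (-0.57) or without Axin2-/GFP- replicate 1 (-0.73) or 2 (-0.97).

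The other class 4 members did not pass. Sema4c, a ligand of Plxnb2, was read at 3.40, 3.77 and 3.02 in Axin2+/GFP+ samples, against 2.68, 2.81 and 2.49 in Axin2-/GFP- samples, a difference of 0.74 with a standard error of 0.22 (limma, adjusted p = 0.0552). The samples did not overlap, and its sign was opposite to that of Sema4b and Sema4d. It passed in a fit blocked on replicate number (0.74), among brighter genes only (0.74) and without Axin2+/GFP+ replicate 3 (0.93). Sema4a, a co-stimulator of T cells, had 4.25, 4.12 and 5.05 in Axin2+/GFP+ samples, against 4.43, 4.53 and 4.18 in Axin2-/GFP- samples, and the interval of its change ran from -0.49 to 0.68. Axin2+/GFP+ replicate 3 was high, and the change was -0.19 without it. Sema4f and Sema4g each had a log2 change of 0.18 and lay within the chemoreceptor genes in both sorts.

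None of the 7 secreted class 3 semaphorins passed, and their log2 changes ran from 0.07 to 0.51. Sema3a, which in bone comes from the osteoblast lineage and protects bone mass through Nrp1, was read at 1.63, 1.89 and 1.61 in Axin2+/GFP+ samples, against 1.58, 1.51 and 1.77 in Axin2-/GFP- samples. These samples overlapped, and of the chemoreceptor genes 55.9% matched or exceeded its mean in Axin2+/GFP+ and 39.6% in Axin2-/GFP- cells. Sema3e, which binds Plxnd1 without a neuropilin, had 2.48, 2.27 and 1.86 in Axin2+/GFP+ samples, against 1.79, 1.71 and 1.58 in Axin2-/GFP- samples (log2 change 0.51, limma adjusted p = 0.115). Its samples did not overlap, but both means lay inside the range of the chemoreceptor genes. Sema3f, the ligand of Nrp2, was above that range with 3.50, 3.55 and 3.79 in Axin2+/GFP+ samples, against 3.06, 3.64 and 3.28 in Axin2-/GFP- samples, and its interval ran from -0.18 to 0.74. Sema3b and Sema3g were also above it in both sorts, with log2 changes of 0.13 and 0.07, whereas Sema3c and Sema3d were not, at 0.12 and 0.30.

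Class 5 to 7 semaphorins gave no call either. Sema6c had tight samples, 2.50, 2.67 and 2.61 in Axin2+/GFP+ cells, against 2.18, 2.18 and 2.20 in Axin2-/GFP- cells, and a log2 change of 0.41 (limma, adjusted p = 0.108). It passed the methods' t-test after adjustment (adjusted p = 0.0449). Sema7a, which is held by a lipid anchor and binds Plxnc1 and integrins, had 4.09, 3.99 and 4.60 in Axin2+/GFP+ samples, against 4.45, 4.08 and 3.81 in Axin2-/GFP- samples. Its log2 change of 0.11 had an interval from -0.43 to 0.64, and the samples interleaved. Sema6d, a ligand of Plxna1, had a log2 change of 0.05 with an interval from -0.41 to 0.52. Sema6a and Sema6b changed by 0.23 and 0.33, and Sema5a and Sema5b, which carry thrombospondin repeats, by 0.34 and 0.14, none past the threshold.

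Among the receptors of semaphorins 1 of 11 passed. It was 1 of the 9 plexins, 11.1% of them, against 11.4% of all genes called lower. Plxnb2, a receptor of class 4 semaphorins among them Sema4c and Sema4d, was read at 1.97, 2.39 and 2.47 in Axin2+/GFP+ samples, against 3.06, 3.08 and 2.84 in Axin2-/GFP- samples. All Axin2+/GFP+ samples lay below all Axin2-/GFP- samples, and replicate 1 again lay lowest. Means differed by -0.72 on the log2 scale, with a standard error of 0.19 (limma, adjusted p = 0.0388), 1.65-fold lower. Of the chemoreceptor genes 23.0% matched or exceeded its mean in Axin2+/GFP+ cells, against 2.1% in Axin2-/GFP- cells. The call ended in a fit blocked on replicate number (-0.72) and without Axin2+/GFP+ replicate 1 (-0.56) or 2 (-0.78) or Axin2-/GFP- replicate 1 (-0.68), 2 (-0.68) or 3 (-0.79).

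The other plexins did not pass. Plxnb1, the osteoblast receptor of Sema4d, had 3.32, 3.34 and 2.94 in Axin2+/GFP+ samples, against 2.97, 3.22 and 3.04 in Axin2-/GFP- samples, an overlap with a log2 change of 0.12 and an interval from -0.29 to 0.54. Plxnb3 had 3.05, 3.18 and 3.03 in Axin2+/GFP+ samples, against 2.78, 2.82 and 2.66 in Axin2-/GFP- samples, with no overlap and a log2 change of 0.33 (limma, adjusted p = 0.179). The B-type plexins thus had a negative, a near-zero and a positive change, of which only the negative passed. Plxnd1, the receptor of Sema3e and prominent in vessels, had 3.86, 4.02 and 3.40 in Axin2+/GFP+ samples, against 4.10, 4.24 and 4.49 in Axin2-/GFP- samples. Its samples did not overlap, and the log2 change of -0.51 (limma, adjusted p = 0.131) passed only when each array was centred on the chemoreceptor genes (-0.83).

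Plxna1, Plxna2, Plxna3 and Plxna4, the partners of neuropilins, had log2 changes of 0.29, 0.20, 0.32 and -0.05 with overlapping samples. Plxnc1, the receptor of Sema7a, had 3.90, 3.66 and 4.34 in Axin2+/GFP+ samples, against 4.18, 3.50 and 3.70 in Axin2-/GFP- samples, and a log2 change of 0.17. Nrp2 stayed above the chemoreceptor genes in both sorts, with 3.61, 3.68 and 3.72 in Axin2+/GFP+ samples, against 3.27, 3.40 and 3.85 in Axin2-/GFP- samples, and its log2 change of 0.16 had an interval from -0.28 to 0.61. Nrp1 showed the widest spread of the members in Axin2-/GFP- samples. It had 2.34, 2.54 and 2.08 in Axin2+/GFP+ samples, against 3.2, 2.63 and 1.89 in Axin2-/GFP- samples. Its log2 change of -0.25 had an interval from -0.97 to 0.46 and was 0.06 without Axin2-/GFP- replicate 1.

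Sema4b, Sema4d and Plxnb2 were lower in the same samples in which the B-lineage list was lower by 3.97 on average (2.91 in Axin2+/GFP+ and 6.88 in Axin2-/GFP- cells) and Il7r and Cd2 of the T and NK list by 3.71 and 3.68. The median change of that list was -0.46, and 7 of its 11 measured markers did not pass, among them Cd3d, Cd3e, Cd3g, Cd4 and Cd8a, whose samples overlapped and which are named here after their values were seen. Of the 14 B-lineage markers 6 had a mean above the 95th percentile of the chemoreceptor genes in Axin2+/GFP+ cells and 14 in Axin2-/GFP- cells. The part of lymphoid cells in the change of these genes was not tested.

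Ephrins had 2 genes called higher and 0 lower of 8, 25% and 0% of them, against 4.64% and 11.4% of all genes. Both limma and the methods' t-test gave 2 higher and 0 lower at a raw p under 0.05. The 2 are 25% of the ephrins, against 16.3% of all genes higher and 17.6% lower at that raw p in limma, and 2952 higher and 2747 lower of the 19938 genes in the t-test. Efnb3, a membrane-spanning ephrin that in neurons acts as a midline barrier, was read at 3.89, 3.94 and 3.63 in Axin2+/GFP+ samples, against 2.92, 3.05 and 2.63 in Axin2-/GFP- samples. The lowest Axin2+/GFP+ sample lay above the highest Axin2-/GFP- sample. The difference was 0.95 on the log2 scale, with a standard error of 0.19 (limma, adjusted p = 0.0113), 1.93-fold higher, with a 95% interval of 0.53 to 1.37. It kept its call with all 4 scalings, and lost it without Axin2-/GFP- replicate 3 (0.83, adjusted p = 0.0501).

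Efna3, an ephrin with a lipid anchor, was read at 3.41, 2.85 and 3.01 in Axin2+/GFP+ samples, against 2.29, 1.78 and 2.53 in Axin2-/GFP- samples. The populations did not overlap, and in Axin2-/GFP- cells its mean was matched or exceeded by 14.3% of the chemoreceptor genes. On the log2 scale the means differed by 0.89, with a standard error of 0.24 (limma, adjusted p = 0.0400), 1.86-fold higher. The call ended after each of 4 scalings, which gave 0.78 (median), 0.81 (quantile), 0.70 (cyclic loess) and 0.57 (centred on chemoreceptor genes), and without Axin2+/GFP+ replicate 1 (0.73) or 3 (0.93) or Axin2-/GFP- replicate 1 (0.94) or 2 (0.68).

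Efnb3, Efna3 and the receptor Epha8 were higher in samples in which 13 of 15 neutrophil, 4 of 15 mesenchymal and 5 of 9 measured osteoblast markers were higher too, and 1 mesenchymal marker was lower. These higher markers are 86.7%, 26.7% and 55.6% of those measured, against 4.64% of all genes called higher. Of the osteoblast markers 13 were listed, and 1 of the 9 measured lay lower without overlap and did not pass. Col1a1 is on the mesenchymal and osteoblast lists and is counted as higher in both. The osteoblast list averaged 3.86 to 4.05 in Axin2+/GFP+ samples, against 3.13 to 3.23 in Axin2-/GFP- samples, and the part of these cell types in the ephrin and Epha8 changes was not tested.

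The ephrins best known from the skull did not pass. Efnb1, whose loss in humans gives craniofrontonasal syndrome with a fused coronal suture, had 3.70, 3.08 and 3.96 in Axin2+/GFP+ samples, against 3.27, 3.54 and 3.11 in Axin2-/GFP- samples. The samples overlapped, with a log2 change of 0.27 and an interval from -0.29 to 0.84. Efna4, linked in humans to coronal synostosis, had 2.45, 2.62 and 2.45 in Axin2+/GFP+ samples, against 2.65, 2.59 and 2.46 in Axin2-/GFP- samples, with an interval from -0.43 to 0.31. Efnb2, which osteoclasts carry and which signals with Ephb4 on osteoblasts, had 2.98, 2.74 and 2.72 in Axin2+/GFP+ samples, against 2.87, 2.49 and 2.80 in Axin2-/GFP- samples, with an interval from -0.32 to 0.51. Efna1, Efna2 and Efna5 had log2 changes of 0.42, 0.21 and 0.27 with overlapping samples.

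Of the 13 Eph receptors 1 was called higher and 1 lower, 7.69% each, against 4.64% and 11.4% of all genes. Epha2, a receptor also known from epithelia and from bone, where ephrin-A2 engages it, was read at 2.47, 3.2 and 3.10 in Axin2+/GFP+ samples, against 3.71, 4.12 and 4.15 in Axin2-/GFP- samples. Every Axin2+/GFP+ sample lay below every Axin2-/GFP- sample, with Axin2+/GFP+ replicate 1 lowest. Means differed by -1.07 on the log2 scale, with a standard error of 0.24 (limma, adjusted p = 0.0188), 2.1-fold lower. It kept its call under each scaling and lost it without Axin2-/GFP- replicate 2 (-1.01) or 3 (-0.99). The B-lineage list was lower in the same samples, and its part in this change was not tested.

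Epha8, a receptor best known from the midbrain, was read at 3.62, 3.50 and 3.21 in Axin2+/GFP+ samples, against 2.70, 2.82 and 2.47 in Axin2-/GFP- samples. The 2 populations did not overlap. The difference was 0.78 on the log2 scale, with a standard error of 0.19 (limma, adjusted p = 0.0246), 1.72-fold higher. The call ended when arrays were centred on the chemoreceptor genes (0.46) and without any 1 sample other than Axin2+/GFP+ replicate 3 (0.69 to 0.86).

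The remaining Eph receptors mostly lay higher at low signal. Of the 13 genes 9 were higher without overlap, 69.2%, against 23.1% of all genes, 31.6% of the chemoreceptor genes and 32.5% of the genes at or below the 95th percentile of the chemoreceptor genes in both sorts. At a raw p under 0.05, limma had 8 higher and 1 lower, and the methods' t-test likewise 8 and 1. In limma these were 61.5% and 7.69% of the Eph receptors, against 16.3% and 17.6% of all genes. Only 4 of the 13, Epha2, Epha8, Epha10 and Ephb4, had a mean above the 95th percentile of the chemoreceptor genes in either population. For Epha10 this held for the brighter of its 2 features only. The median log2 change of the 13 was 0.45, and it was 0.34 with median centring, 0.25 with quantile normalization, 0.22 with cyclic loess and 0.13 with centring on chemoreceptor genes, where 0 were called higher.

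Epha4, which with Twist1 marks the boundary of the mouse coronal suture and binds ephrins of both groups, had 2.19, 2.07 and 2.25 in Axin2+/GFP+ samples, against 1.75, 1.84 and 1.80 in Axin2-/GFP- samples, a log2 change of 0.37 (limma, adjusted p = 0.137). Its mean was matched or exceeded by 27.9% of the chemoreceptor genes in Axin2+/GFP+ and by 28.3% in Axin2-/GFP- cells. Epha7 had 2.54, 2.54 and 2.69 in Axin2+/GFP+ samples, against 2.20, 2.05 and 1.64 in Axin2-/GFP- samples (log2 change 0.63, limma adjusted p = 0.0583). Ephb3 had 2.24, 2.56 and 1.96 in Axin2+/GFP+ samples, against 1.67, 1.74 and 1.46 in Axin2-/GFP- samples (log2 change 0.63, limma adjusted p = 0.0651). Neither gene passed, and both lay within the chemoreceptor genes in each sort, although both passed in limma with a trend of the variance on signal (adjusted p = 0.0453 and 0.0456).

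Epha6 had the tightest Axin2+/GFP+ samples of the Eph receptors, 1.48, 1.52 and 1.47, against 0.89, 1.09 and 1.06 in Axin2-/GFP- samples. Its log2 change of 0.48 did not pass (limma, adjusted p = 0.0724) but did with the variance trend (adjusted p = 0.0343) and in the adjusted t-test of the methods (adjusted p = 0.0484). Its mean was matched or exceeded by 72.2% of the chemoreceptor genes in Axin2+/GFP+ and by 88.0% in Axin2-/GFP- cells. Ephb1 had a log2 change of 0.53 (limma, adjusted p = 0.0786), but a second feature of it gave -0.01. Epha5 and Epha1 changed by 0.45 and 0.32 without overlap, and Epha3 by 0.72 with overlap (2.05 to 3.18 in Axin2+/GFP+ and 1.47 to 2.17 in Axin2-/GFP- samples). Epha10, which lacks kinase activity, had 3.72, 4.16 and 3.67 in Axin2+/GFP+ samples, against 3.47, 3.29 and 3.61 in Axin2-/GFP- samples, a log2 change of 0.39 that did not pass. A second, dimmer feature of Epha10 had 2.37, 2.07 and 2.79 in Axin2+/GFP+ samples, against 2.03, 2.20 and 2.01 in Axin2-/GFP- samples. Those samples overlapped and lay within the chemoreceptor genes in both sorts. Ephb4, the partner of Efnb2 on osteoblasts, changed by 0.17 with an interval from -0.23 to 0.57, and Ephb6, also without kinase activity, by -0.04 with an interval from -0.41 to 0.33.

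**Figure D4:**
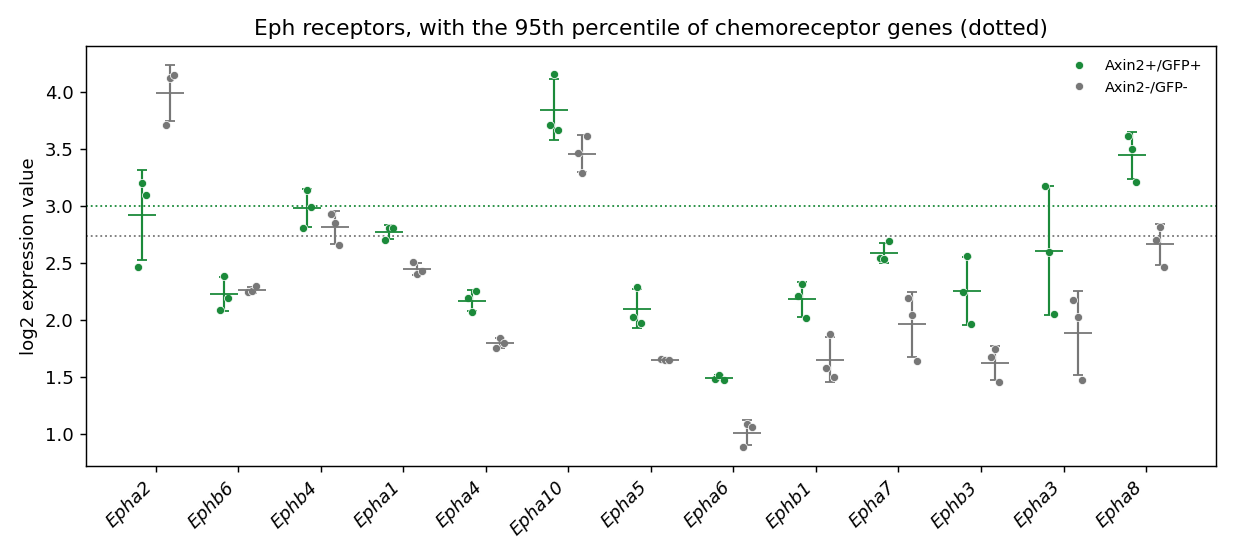
Log2 values of the 13 Eph receptors are plotted on the vertical axis in order of their log2 change, with 1 point per sample, bars at means and 1 SD whiskers, green for Axin2+/GFP+ and grey for Axin2-/GFP- cells. Dotted lines mark the 95th percentile of the olfactory and vomeronasal receptor genes in each population, 3.0 and 2.73, and most of the genes with a higher green mean lie below their lines.

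Promoter windows of 4 called members are shown, 3 lower in Axin2+/GFP+ cells that hold a searched motif and 1 higher that holds none. The windows were not drawn at random, so they do not compare lower with higher members. They are RefSeq sequences of the build GRCm38.p6, covering 250 bases before a start site, and 6 of the 7 called members and 46 of the 52 members matched by symbol. Capitals mark matches, on either strand, to GAGGAAG of ETS factors, CAGGTG of E proteins, or CTTTGA of TCF and LEF factors. The palindromic EBF motif was searched as well and is in none of the windows shown.
Sema4b, chr7:80186620-80186869, + strand: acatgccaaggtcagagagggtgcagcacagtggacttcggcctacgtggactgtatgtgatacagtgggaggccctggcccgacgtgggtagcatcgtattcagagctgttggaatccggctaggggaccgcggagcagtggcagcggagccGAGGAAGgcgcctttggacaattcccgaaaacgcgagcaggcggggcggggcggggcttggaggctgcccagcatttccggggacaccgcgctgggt
Plxnb2, chr15:89173952-89174201, - strand: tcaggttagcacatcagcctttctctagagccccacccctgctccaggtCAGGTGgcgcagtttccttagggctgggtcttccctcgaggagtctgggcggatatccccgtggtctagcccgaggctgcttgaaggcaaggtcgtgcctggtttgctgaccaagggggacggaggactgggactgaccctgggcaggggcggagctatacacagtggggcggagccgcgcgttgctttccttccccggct
Epha2, chr4:141300971-141301220, + strand: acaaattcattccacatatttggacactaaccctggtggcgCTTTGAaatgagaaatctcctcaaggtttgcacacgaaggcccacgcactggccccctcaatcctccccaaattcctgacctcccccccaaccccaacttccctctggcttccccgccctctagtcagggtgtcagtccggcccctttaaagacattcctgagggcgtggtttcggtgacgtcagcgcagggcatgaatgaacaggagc
Epha8, chr4:136956817-136957066, - strand: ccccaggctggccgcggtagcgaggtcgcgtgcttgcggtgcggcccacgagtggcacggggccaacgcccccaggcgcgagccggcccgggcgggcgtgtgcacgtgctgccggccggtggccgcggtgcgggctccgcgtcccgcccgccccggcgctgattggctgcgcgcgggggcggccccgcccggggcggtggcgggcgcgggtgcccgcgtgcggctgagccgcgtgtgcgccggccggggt
Sema4b and Plxnb2 each have 2 promoters in RefSeq, of which 1 is shown. The GAGGAAG of Sema4b starts 97 bases before the start site, and its other promoter holds the same letters 245 bases before. The CAGGTG of Plxnb2 starts 201 bases before, and its other promoter holds none of the 4 motifs. The CTTTGA of Epha2 starts 209 bases before, and Epha8, the member shown that was higher in Axin2+/GFP+ cells, holds none of the 4. Of the 60 promoters of members 21.7% hold GAGGAAG, 11.7% CAGGTG, 5% CTTTGA and 1.67% the EBF motif, against 10.6%, 17.2%, 14% and 0.779% of all 32851 promoters. The Epha8 window is 84.0% G and C with 46 CG pairs, the Sema4b window 64.4% with 20, the Plxnb2 window 63.6% with 13 and the Epha2 window 55.6% with 9, against medians of 52.4% and 6 over all promoters. A match describes letters in the window and is not a measured site. The 3 promoters of Sema4d, which was lower, and the 2 of Efna3, which was higher, hold none of the 4 motifs.

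Co-receptors, signalling proteins and proteases that work with these families were read from 2 lists. Of 36 measured partners of semaphorins, plexins and neuropilins, of 37 listed, 3 were higher and 3 lower. These are 8.33% each of the list, against 4.64% higher and 11.4% lower of all genes. The median log2 change of the list was 0.23, against 0.14 over all genes. Cd72, the B cell receptor of Sema4d, had 2.83, 2.44 and 3.22 in Axin2+/GFP+ samples, against 7.48, 7.66 and 7.98 in Axin2-/GFP- samples, a log2 change of -4.88 (limma, adjusted p = 1.97e-05), and it is itself on the B-lineage list. Rras, the small GTPase that plexins switch off, had 4.08, 4.25 and 4.16 in Axin2+/GFP+ samples, against 3.62, 3.11 and 3.21 in Axin2-/GFP- samples, a log2 change of 0.85 (adjusted p = 0.0186). Flna, an actin crosslinker, was 0.84 higher (adjusted p = 0.0342), and Fyn, a kinase downstream of A-type plexins that is on both lists, had a change of -0.97 (adjusted p = 0.0322).

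Of 34 measured Eph and ephrin partners, of 37 listed, 0 were higher and 6 lower in limma at an adjusted p under 0.05, and 5 higher and 10 lower at an unadjusted p under 0.05. The first 2 counts are 0% and 17.6% of the list, against 4.64% and 11.4% of all genes. The last 2 counts are 14.7% and 29.4% of the list, against 16.3% and 17.6% of all genes. The median log2 change of the list was -0.01. Adam10, the protease that cuts ephrins off the cell surface, had 3.64, 3.21 and 3.39 in Axin2+/GFP+ samples, against 5.42, 4.94 and 5.44 in Axin2-/GFP- samples, a log2 change of -1.85 (limma, adjusted p = 0.000882). Rasa1, a brake on Ras bound by Eph receptors, had a log2 change of -1.26 (adjusted p = 0.00972), the adaptor Crk of -1.13 (adjusted p = 0.0179) and the kinase Rock1 of -0.64 (adjusted p = 0.0280). The B-lineage list was lower in the same samples, and its part in these changes was not tested.

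**Figure D5:**
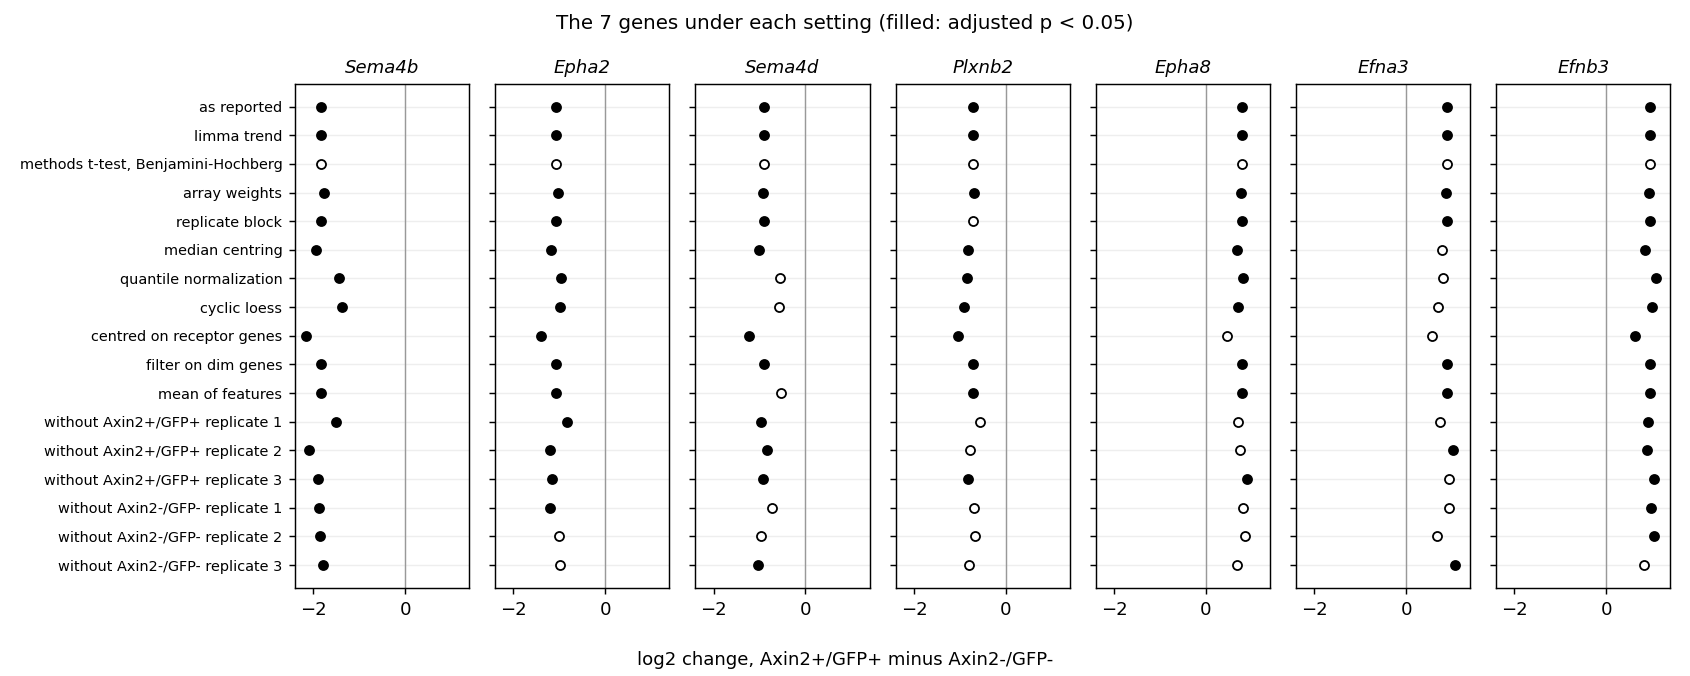
The log2 change of each of the 7 called members is plotted on the horizontal axis, 1 panel per gene, for the reported setting and 16 alternatives on the vertical axis, with filled points at an adjusted p under 0.05 and open points otherwise. No point of the 7 genes crosses 0, Sema4b has 1 open point, and Sema4d, Plxnb2, Efna3 and Epha8 have several.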

How the data were processed

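RNA of 3 Axin2+/GFP+ and 3 Axin2-/GFP- samples was hybridised to Affymetrix arrays. The authors deposited log2 expression values, for which the notes by the submitters list R 3.2.1 and RMA. Details of the background step: not given in the sources used here. All 6 columns were used as they stand, with 0 left unmatched. Features with 1 gene symbol (21789) took their names from the GEO platform annotation, 1621 with several symbols and 12147 unnamed ones were left out, and 21698 were matched by gene identifier to RefSeq, which changed 0 names. The range of the deposited values fits a log2 scale. For the 999 genes with several features the brightest was used.

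The test was limma 3.58.1 (lmFit, then eBayes; R 4.3.3). P-values were adjusted by Benjamini-Hochberg over all 19938 genes, with a threshold of 0.05. The procedure was tested on simulated data. Members, lists, motifs and named genes were chosen with earlier results of these data known. All members may be named; of each pathway list up to 4 genes with the smallest p were named, and of cell type lists up to 2, beside Axin2. Tried besides were the methods' t-test, a variance trend in limma, weights per array, a replicate block, 4 scalings (median centring, quantile, cyclic loess, and centring on chemoreceptor genes), a filter on dim genes, the mean of features and leaving out each sample.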

Additional observations from a re-analysis of the deposited data

How the results depend on the processing

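The 7 called members kept their direction under every alternative run, and the calls that ended are given beside each gene; after the adjusted t-test of the methods all 7 ended. The number of members called higher, 3, was 6 in limma with a trend, 15 in the unadjusted methods' t-test (4 lower), 1 with centring on the chemoreceptor genes, and 1 to 5 with 1 sample left out, with 1 without Axin2+/GFP+ replicate 1 or any 1 Axin2-/GFP- replicate. The number called lower, 4, was 0 in the adjusted t-test, where 2 were higher, Epha6 and Sema6c, and 1 to 4 with 1 sample left out, with 2, 1 and 2 without Axin2-/GFP- replicates 1, 2 and 3. Over all genes the split of 926 higher and 2265 lower was 459 and 2719 after median centring, 863 and 1165 after quantile normalization, 901 and 1373 with cyclic loess, 210 and 3980 with chemoreceptor centring, 211 and 518 in the adjusted t-test and 2952 and 2747 in the unadjusted one. It was 239 to 288 higher and 1376 to 1456 lower without any 1 Axin2-/GFP- replicate, and 655 to 852 higher and 1951 to 2082 lower without any 1 Axin2+/GFP+ replicate. With the replicate number as a block 4 members were higher and 3 lower. Samples with the same number deviated together with r of 0.031, 0.011 and 0.053 over genes, and not every sample correlated best with its own number, so the numbers were not read as pairs.

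Members that did not pass changed sign as follows, on the log2 scale. Centred on the chemoreceptor genes: Efna2 -0.11, Efna5 -0.052, Efnb1 -0.047, Efnb2 -0.22, Ephb4 -0.15, Nrp2 -0.16, Plxna1 -0.031, Plxna2 -0.12, Plxnb1 -0.19, Plxnc1 -0.15, Sema3a -0.23, Sema3b -0.19, Sema3c -0.20, Sema3d -0.018, Sema3f -0.037, Sema3g -0.25, Sema4a -0.22, Sema4f -0.14, Sema4g -0.14, Sema5b -0.18, Sema6a -0.085, Sema6d -0.27 and Sema7a -0.21. After cyclic loess: Efnb2 -0.070, Plxna2 -0.049, Sema3a -0.17, Sema3c -0.14, Sema4f -0.044, Sema4g -0.066 and Sema6d -0.040. After median centring: Efnb2 -0.013, Sema3a -0.018, Sema3g -0.040, Sema4a -0.013, Sema6d -0.058 and Sema7a -0.00069. After quantile normalization: Efnb2 -0.0017, Plxna2 -0.010, Sema3a -0.16, Sema3c -0.12 and Sema4g -0.024. With 1 sample left out the range crossed 0 for Efnb2 -0.019 to 0.17, Ephb6 -0.12 to 0.028, Nrp1 -0.60 to 0.061, Plxna4 -0.19 to 0.11, Plxnc1 -0.016 to 0.36, Sema3g -0.0095 to 0.16, Sema4a -0.19 to 0.27, Sema6d -0.14 to 0.16 and Sema7a -0.078 to 0.28. The median change of all genes was 0.14 as reported and -0.18 when centred on the chemoreceptor genes, which accounts by construction for the shift of small positive changes.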

Other observations

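Other guidance genes were read from a list of Slit, Robo, netrin and RGM genes with their receptors, Flrt and Dscam genes, and the intracellular Srgap, Enah and Vasp. Of 28 measured, limma called 1 higher and 0 lower, 3.57% and 0% of the list, against 4.64% and 11.4% of all genes. At a raw p under 0.05 limma had 7 higher and 0 lower. These are 25% and 0% of the list, against 16.3% higher and 17.6% lower of all genes. Vasp, which drives actin growth in migrating and blood cells alike, had 7.24, 7.11 and 6.97 in Axin2+/GFP+ samples, against 5.28, 5.29 and 5.07 in Axin2-/GFP- samples, a difference of 1.89 with a standard error of 0.17 (limma, adjusted p = 0.000362). The neutrophil list was higher in the same samples, and its part in this change was not tested. The receptors Robo3, Dcc and Robo1 had log2 changes of 0.66, 0.51 and 0.53 without overlap and did not pass (adjusted p = 0.0503, 0.0557 and 0.0695).

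Of 15 measured genes of the suture boundary and osteogenic front 1 was higher and 1 lower. Each is 6.67% of the list, against 4.64% higher and 11.4% lower of all genes. Alx4, a homeobox gene of skull growth, was 0.84 higher (limma, adjusted p = 0.0464), and Tcf12, the partner of Twist1 that is also abundant in lymphoid cells, had a log2 change of -2.07 (adjusted p = 0.000447). Twist1 had 3.66, 4.01 and 3.50 in Axin2+/GFP+ samples, against 3.11, 3.39 and 2.37 in Axin2-/GFP- samples, with no overlap and a log2 change of 0.77 (adjusted p = 0.0915). Notch2 had a log2 change of -0.88 (adjusted p = 0.0536).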
